A study of Homo sapiens with 6 samples.

Results

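The integrated stress response genes described here are ATF4, ATF5, DDIT3, TRIB3, PPP1R15A, CHAC1, ASNS, SLC7A11, SLC3A2 and SLC7A5, chosen by name as regulators, feedback genes, enzymes and transporters of the ATF4 pathway. All 10 were found, by symbol and Ensembl identifier, among the 57905 genes of the count table, and all 10 passed the filter on low counts that left 16622 genes for testing. The study treated NALM6 cells (Nalm6 in the labels), a human leukemia cell line of B-cell precursor origin, with THZ1, a covalent inhibitor of the transcription-associated kinase CDK7. RNA-SEQ libraries came from cells given 500 nM of THZ1 for 24 h (n = 3) and from cells given the solvent DMSO for the same time (n = 3). The comparison asks how the RNA levels of these genes differed between the treatments in a single cell line at a single dose and time.

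In the integrated stress response, a kinase that senses a stress such as amino acid shortage, misfolded protein, heme shortage or viral RNA phosphorylates the translation initiation factor eIF2. Bulk protein synthesis then slows, whereas the mRNA of the transcription factor ATF4 is translated more. ATF4 binds DNA with C/EBP family partners and is known to raise genes for amino acid uptake and synthesis, tRNA charging and redox balance, together with DDIT3 and the feedback genes TRIB3 and PPP1R15A.

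The libraries held 11015480 to 11164840 counts after DMSO and 7876402 to 8314306 after THZ1. Mitochondrially encoded genes took 4.32% to 4.37% of the counts after DMSO and 12.6% to 13.6% after THZ1. Leaving those genes out of the TMM-scaled fit changed the call of no member. Of the genes tested, 84.5% were called higher or lower by edgeR (adjusted p below 0.05). The 12 B-cell precursor markers were all tested and summed to 4133 to 4269 CPM (counts scaled to a common library total) after DMSO and to 2192 to 2257 CPM after THZ1, with 2 higher, 9 lower and 1 not called. T-cell and NK markers summed to 7.17 to 8.85 and 8.96 to 14.3 CPM. Most of this was NKG7, the only 1 tested, with 84 to 108 counts after DMSO and 65 to 96 after THZ1. It was called higher (log2 fold change 0.49) with libraries that overlapped. CD3D, CD3G, CD2 and KLRD1 were at 0 in every DMSO library, and CD3D reached 2 and CD3G 5 counts after THZ1. Myeloid markers summed to 3.97 to 4.67 and 17.3 to 18.4 CPM, with 2 higher, 1 lower and 1 not called of 4 tested. The higher ones held few counts after DMSO, CD14 with 7 to 9 and CSF1R with 1 to 2. After THZ1 they held 58 to 71 and 37 to 60. The lower one, LYZ, held 21 to 37 counts after DMSO and 7 to 17 after THZ1. Erythroid and fibroblast markers summed to 3.20 to 4.55 and 15.8 to 16.5 CPM, and the 1 tested, COL1A1, was higher. The part of these markers in the results was not tested. Counts give a gene's share of the RNA in a culture, so fewer cells of a kind and less RNA per cell cannot be told apart.

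Sequence around start sites is shown for the members because ATF4 and its partners act through short DNA elements near their targets. RefSeq start sites on GRCh38.p14 were available for 9 of the 10 members, in 18 windows from 250 bases before to 50 bases after a start, and SLC7A11 had no entry. The windows were searched on both strands for TGATGNAA, the C/EBP-ATF response element, which stood in 3.62% of the 35116 windows of all genes, for TGACGTCA, the cAMP response element to which ATF and CREB factors bind, in 1.85%, and for CACGTG, an E-box, in 7.26%. The E-box is not given here as a site of ATF4 or its partners. Binding to any of these motifs was not tested. The capitals below mark the match, and the lower-case bases are its surroundings, written 5′ to 3′ on the strand of the gene.
ATF4, E-box, chr22:39520466-39520493, + strand: gaggagacggtCACGTGgtcgcggcgga
PPP1R15A, cAMP response element, chr19:48872352-48872381, + strand: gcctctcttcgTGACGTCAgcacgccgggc
CHAC1, C/EBP-ATF response element on the opposite strand, chr15:40953251-40953280, + strand: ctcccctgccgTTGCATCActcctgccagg
ASNS, C/EBP-ATF response element, chr7:97872458-97872487, − strand: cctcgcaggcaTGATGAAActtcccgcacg
SLC3A2, C/EBP-ATF response element on the opposite strand, chr11:62881725-62881748, + strand: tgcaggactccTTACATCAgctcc
SLC7A5, E-box, chr16:87869621-87869648, − strand: gccggacgacgCACGTGctccgagctgg

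With the start site of the window that held the match counted as 0, its first base stood at −82 for ATF4, −58 for PPP1R15A and −209 for CHAC1. It stood at −68 for ASNS, 37 for SLC3A2 and −130 for SLC7A5. SLC3A2 had 3 annotated starts, and its match lay after a start that was not the most upstream. No match overlapped a match to another of the motifs. The windows of ATF5, DDIT3 and TRIB3 did not contain these letters, which says nothing of the factors themselves. CHAC1 and ASNS are printed over the whole 250 bases before the start. Both held the C/EBP-ATF response element, and their shares of the counts moved in opposite directions, as given below.
CHAC1, chr15:40953221-40953470, + strand: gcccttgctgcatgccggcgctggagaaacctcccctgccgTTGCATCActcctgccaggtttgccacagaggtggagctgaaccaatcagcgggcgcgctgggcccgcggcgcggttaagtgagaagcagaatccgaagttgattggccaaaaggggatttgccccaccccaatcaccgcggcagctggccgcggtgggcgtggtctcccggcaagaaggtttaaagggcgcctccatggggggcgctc
ASNS, chr7:97872409-97872658, − strand: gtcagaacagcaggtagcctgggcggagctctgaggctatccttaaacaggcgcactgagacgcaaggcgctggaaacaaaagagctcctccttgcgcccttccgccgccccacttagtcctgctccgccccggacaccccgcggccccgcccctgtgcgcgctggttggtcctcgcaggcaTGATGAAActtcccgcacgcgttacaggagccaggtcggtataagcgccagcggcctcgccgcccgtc

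Of the 10 members, 6 were called higher after THZ1 (ATF4, DDIT3, PPP1R15A, CHAC1, SLC3A2 and SLC7A5), 3 were called lower (ATF5, TRIB3 and ASNS) and 1, SLC7A11, was not called by edgeR. Over all genes tested, 43.5% were called higher and 41.1% lower at the same threshold, so most genes passed it, and a share of members near the background is no result about the members. At a log2 fold change of at least 1.5, 2 members were higher, PPP1R15A and CHAC1, and 0 were lower, beside 24.6% and 12.9% of all genes tested. The CPM of the 3 THZ1 libraries did not overlap those of the 3 DMSO libraries in 9 of the 10 members, beside 84.7% of all genes tested. The median log2 fold change of the members was 0.53, against 0.03 for all genes tested. It was 0.29 to 0.73 under other scalings of the libraries, under which the median of all genes shifted by −0.25 (library sizes alone) to 0.19 (upper quartile). Calls and fold changes, here and below, compare shares of the counts. A change in total RNA per cell after THZ1 would not show in them and was not tested.

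**Figure D1:**
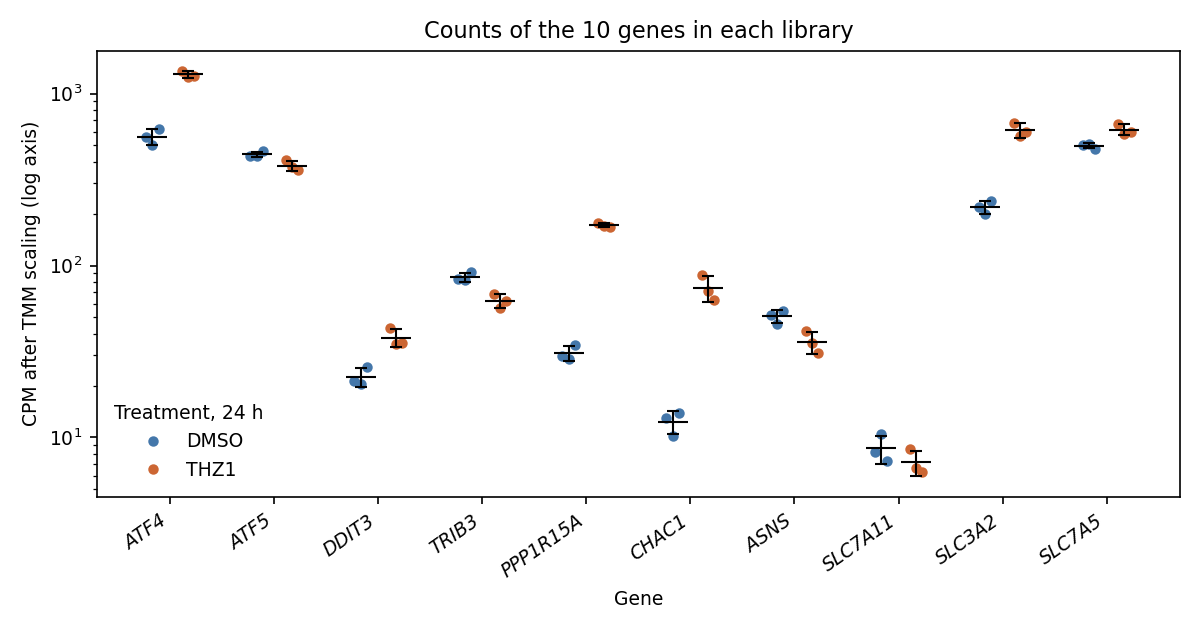
CPM of each member after TMM scaling (log axis) in the 3 DMSO and 3 THZ1 libraries, with the mean as a long line and the SD as the bar. The treatments overlap only in SLC7A11, and PPP1R15A and CHAC1 show the widest gaps, from 31.0 to 172 and from 12.4 to 74.1 CPM.

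ATF4 (ENSG00000128272, GRCh37 chr22:39915700-39918688, + strand) is the transcription factor at the centre of the pathway. Its CPM were 562, 500 and 622 after DMSO and 1352, 1256 and 1266 after THZ1. Every THZ1 library stood above every DMSO library. ATF4 was 2.30-fold higher (log2 fold change 1.20 ± 0.07, SE, edgeR adjusted p = 8.76e-16). Leaving out any library gave 1.10 to 1.26. The pseudogenes ATF4P1, ATF4P3 and ATF4P4 held 0 to 2 counts per library.

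ATF5 (ENSG00000169136, chr19:50431959-50437192, + strand) is a related transcription factor whose mRNA is also translated more when eIF2 is phosphorylated. Its CPM were 435, 433 and 461 after DMSO and 409, 372 and 361 after THZ1. The THZ1 libraries were all lower, and the highest of them lay close to the lowest DMSO library. ATF5 was 1.16-fold lower (log2 fold change −0.22 ± 0.07, edgeR adjusted p = 0.00369), opposite in direction to ATF4. The call was lost under upper quartile scaling (−0.03, edgeR adjusted p = 0.719). On the other strand, ATF5 overlaps NUP62, whose log2 fold change was −0.16 without a call, and IL4I1, with a log2 fold change of 4.14 from 1 to 8 counts after DMSO to 40 to 64 after THZ1. The sources used here do not give the strand setting of the counting, so reads of such partners cannot be told apart.

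DDIT3 (ENSG00000175197, chr12:57910371-57915520, − strand), which encodes CHOP, is an ATF4 target linked to cell death in prolonged stress. Its CPM were 21.3, 20.6 and 25.8 after DMSO and 43.4, 35.2 and 35.6 after THZ1. The groups did not overlap, and THZ1 replicate 1 was the highest library. DDIT3 was 1.69-fold higher (log2 fold change 0.75 ± 0.11, edgeR adjusted p = 3.32e-07). Its ends overlap MARS1 over 982 bases and MBD6 over 1028 bases, both on the other strand, with log2 fold changes of 0.25 and 1.55. MIR616, a microRNA gene within DDIT3 on the same strand, held 3 to 9 counts after DMSO and 21 to 25 after THZ1 (log2 fold change 2.63, edgeR adjusted p = 2.85e-07). The part of reads from these genes in the DDIT3 counts of 251 to 330 per library was not tested.

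Among the feedback genes, PPP1R15A (ENSG00000087074, chr19:49375469-49379316, + strand) encodes GADD34, the stress-induced subunit that directs protein phosphatase PP1 to eIF2 and so reverses its phosphorylation. Its CPM were 29.6, 28.7 and 34.7 after DMSO and 177, 169 and 168 after THZ1. The THZ1 libraries lay near each other and far above the DMSO libraries. PPP1R15A was 5.54-fold higher (log2 fold change 2.47 ± 0.08, edgeR adjusted p = 2.02e-22), and every library left out in turn gave 2.39 to 2.54.

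TRIB3 (ENSG00000101255, chr20:343479-378203, + strand) encodes a pseudokinase that is induced by ATF4 and DDIT3 and restrains them. Its CPM were 82.9, 82.5 and 91.3 after DMSO and 68.0, 56.3 and 62.2 after THZ1. Every THZ1 library was lower than every DMSO library. TRIB3 was 1.38-fold lower (log2 fold change −0.46 ± 0.08, edgeR adjusted p = 9.08e-06), so the feedback genes moved in opposite directions.

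Of the enzymes, CHAC1 (ENSG00000128965, chr15:41245160-41248710, + strand) breaks down glutathione, the main thiol antioxidant of cells. Its CPM were 12.98, 10.2 and 13.8 after DMSO and 88.0, 71.3 and 63.1 after THZ1. The spread was wider than for PPP1R15A, and the groups stood far apart. CHAC1 had the largest change among the members, 6.001-fold higher (log2 fold change 2.59 ± 0.12, edgeR adjusted p = 7.92e-19), with 2.44 to 2.68 when a library was left out.

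ASNS (ENSG00000070669, chr7:97480989-97501854, − strand) makes asparagine from aspartate and glutamine and is a well-known ATF4 target. Its CPM were 51.7, 45.9 and 54.2 after DMSO and 41.4, 35.4 and 31.0 after THZ1. All THZ1 libraries were below all DMSO libraries. ASNS was 1.41-fold lower (log2 fold change −0.49 ± 0.10, edgeR adjusted p = 5.50e-05). The pseudogene ASNSP3 and ENSG00000226744, a pseudogene on the other strand within ASNS, held 0 to 1 counts per library. The upstream element TGATGAAA of ASNS, printed above, has the letters of the same motif as that of CHAC1, whose share of the counts rose.

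The transporters form pairs at the cell surface. SLC3A2 (ENSG00000168003, chr11:62623476-62656352, + strand) encodes the heavy chain 4F2hc, which carries light chains to the membrane. Its CPM were 220, 200.3 and 238 after DMSO and 678, 564 and 594 after THZ1. The THZ1 libraries were all far above the DMSO libraries. SLC3A2 was 2.79-fold higher (log2 fold change 1.48 ± 0.08, edgeR adjusted p = 9.34e-18).

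SLC7A5 (ENSG00000103257, chr16:87863629-87903113, − strand) encodes LAT1, a light chain that imports large neutral amino acids such as leucine. Its CPM were 504, 508 and 478 after DMSO and 669, 583 and 600.0 after THZ1. The groups did not overlap, though the gap was small beside that of SLC3A2. SLC7A5 was 1.24-fold higher (log2 fold change 0.31 ± 0.07, edgeR adjusted p = 0.000106). This call depended on the scaling, with 0.06 under library sizes alone (edgeR adjusted p = 0.356) and 0.03 in the deposited FPKM values (limma adjusted p = 0.767). The pseudogene SLC7A5P1 (ENSG00000260727, chr16:29624424-29624961, − strand) held 31 to 37 counts after DMSO and 595 to 667 after THZ1, a log2 fold change of 4.94 ± 0.13 (edgeR adjusted p = 1.83e-25). Reads that fit both copies make the SLC7A5 and SLC7A5P1 counts uncertain, and SLC7A5 itself held 4213 to 6202 counts per library. On the opposite strand of SLC7A5, the lncRNA ENSG00000260466 had a log2 fold change of 0.35.

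SLC7A11 (ENSG00000151012, chr4:139085251-139163503, − strand) encodes xCT, the light chain that exchanges glutamate for cystine and so feeds glutathione synthesis. Its CPM were 8.27, 10.4 and 7.26 after DMSO and 8.55, 6.64 and 6.28 after THZ1, from 47 to 127 counts per library. The groups overlapped, and no difference was detectable at this depth under TMM scaling (log2 fold change −0.27 ± 0.19, edgeR adjusted p = 0.180). Without DMSO replicate 3 it was called lower (−0.40, edgeR adjusted p = 0.0448), and so it was in the deposited FPKM values, which were 3.29, 3.83 and 3.06 after DMSO and 1.36, 0.94 and 0.84 after THZ1 (log2 difference −1.11, limma adjusted p = 0.000592). Counts and deposited FPKM thus gave different sizes for this gene, and the cause was not tested. The limma p-value may be too small, since the sorted FPKM values are nearly alike within a treatment. The antisense gene SLC7A11-AS1 held 1 to 4 counts after DMSO and 1 to 11 after THZ1, too few to be tested.

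**Figure D2:**
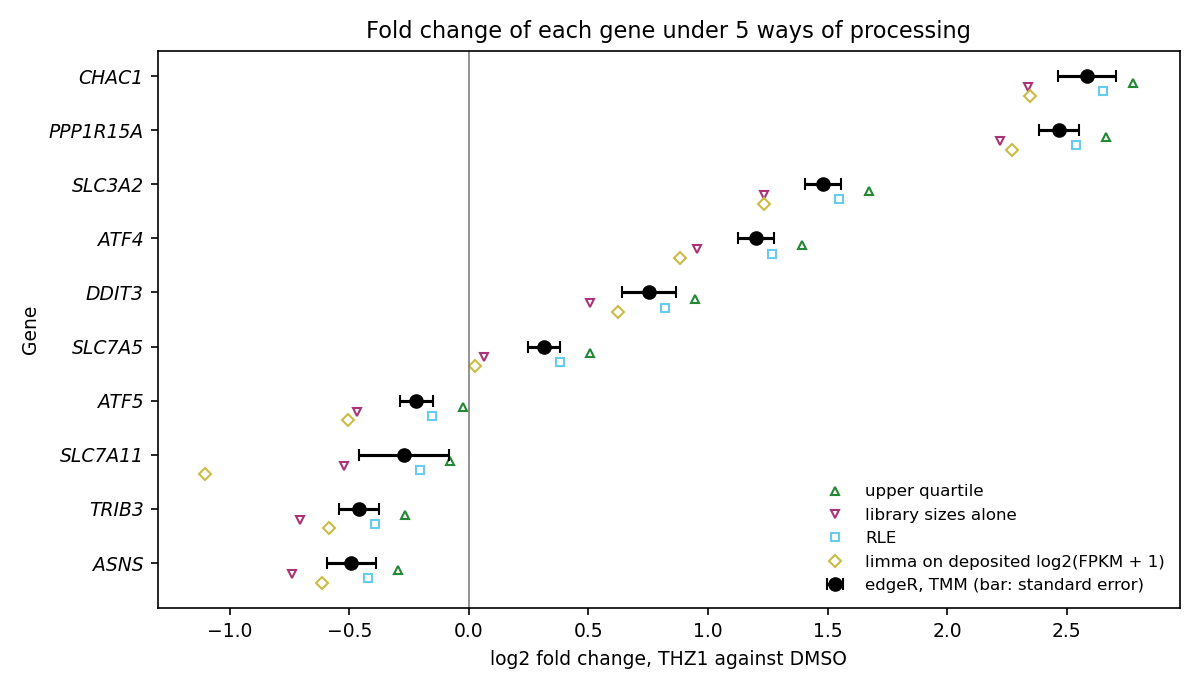
Log2 fold change of each member, THZ1 against DMSO, from edgeR with TMM scaling (circles, bar: SE), other scalings and limma on the deposited log2(FPKM + 1) values. CHAC1, PPP1R15A, SLC3A2, ATF4 and DDIT3 stay above 0 and TRIB3 and ASNS below 0 with a call in all 19 alternatives, whereas SLC7A5, ATF5 and SLC7A11 come near 0 in some.

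Under 19 alternatives, 7 members kept a call in the same direction in each, 5 higher (ATF4, DDIT3, PPP1R15A, CHAC1 and SLC3A2) and 2 lower (TRIB3 and ASNS). Within the THZ1 group, replicate 1 had the highest CPM for all 10 members, while it was the highest THZ1 library for 32.9% of all genes tested. Among the DMSO libraries, replicate 3 was the highest for 8 of the members, beside 38.3% of all genes tested. Replicate 2 was the lowest for 8 of the members, for which no share over all genes was taken. Leaving out DMSO replicate 3 changed the call of SLC7A11 alone among the members, as given above. Leaving out THZ1 replicate 1 or any other library changed no member's call.

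Levels can be compared between genes only per transcript length, for which the deposited FPKM values were used as means of 3 libraries. Their sorted values are nearly alike within a treatment, so the SDs and overlaps may understate the spread between libraries. After DMSO, ATF4 was the highest at 654 ± 14.5 FPKM (SD), followed by ATF5 at 455 ± 18.2, SLC7A5 at 311 ± 29.1 and SLC3A2 at 120 ± 4.85. TRIB3 at 79.8 ± 2.54 and DDIT3 at 47.9 ± 5.43 came next. ASNS at 28.9 ± 2.34 and PPP1R15A at 28.2 ± 2.84 overlapped, and CHAC1 at 17.2 ± 2.71 and SLC7A11 at 3.39 ± 0.39 were the lowest.

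After THZ1, ATF4 stood further above the rest at 1209 ± 44.9 FPKM. ATF5 at 321 ± 19.1, SLC7A5 at 316 ± 16.8 and SLC3A2 at 285 ± 24.1 were neighbours that overlapped in turn. PPP1R15A at 140 ± 4.04 and CHAC1 at 91.5 ± 15.5 had moved above DDIT3 at 74.4 ± 8.91, which overlapped CHAC1, and above TRIB3 at 53.0 ± 4.82. ASNS at 18.6 ± 2.90 and SLC7A11 at 1.05 ± 0.27 closed the order. CPM per kb of exon gave the same order of the members in both treatments.

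**Figure D3:**
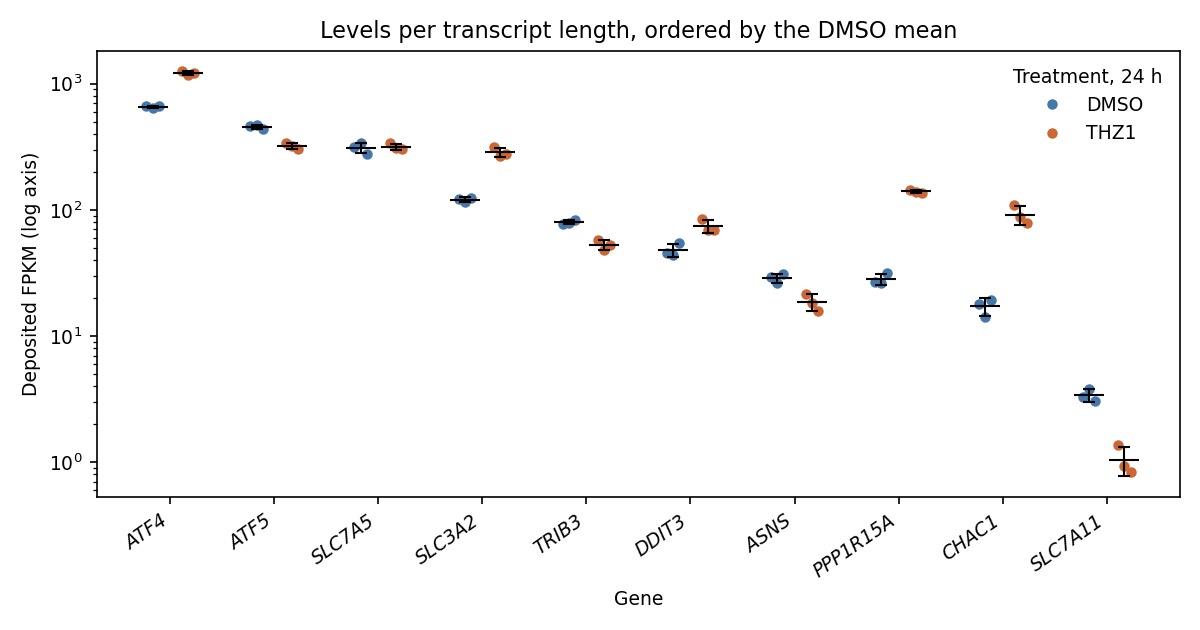
Deposited FPKM of the members (log axis) in the 3 DMSO and 3 THZ1 libraries, ordered by the DMSO mean, with mean and SD. ATF4 is the highest in both treatments, and PPP1R15A and CHAC1 pass TRIB3 and DDIT3 after THZ1.

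Ratios of counts within a library do not depend on the scaling between libraries, so each member was set against ATF4. Per 100 ATF4 counts, PPP1R15A had 5.26, 5.73 and 5.57 counts after DMSO and 13.1, 13.5 and 13.3 after THZ1. CHAC1 had 2.31, 2.05 and 2.22 against 6.51, 5.68 and 4.98. SLC3A2 had 39.1, 40.0 and 38.2 against 50.1, 44.9 and 46.9. These genes rose relative to ATF4 in every THZ1 library, by 1.27, 1.37 and 0.27 on the log2 scale.

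The other members fell relative to ATF4. ATF4 itself rose by 1.20, beside a median of 0.03 for all genes tested, so a gene that changed little falls by this measure too. Per 100 ATF4 counts, ASNS had 9.19, 9.17 and 8.71 counts after DMSO and 3.06, 2.82 and 2.45 after THZ1. TRIB3 had 14.7, 16.5 and 14.7 against 5.03, 4.49 and 4.91. The log2 difference was −1.70 for ASNS, −1.67 for TRIB3, −1.47 for SLC7A11, −1.43 for ATF5, −0.89 for SLC7A5 and −0.45 for DDIT3, with no overlap between the treatments. DDIT3 therefore rose in share of all counts and fell relative to ATF4.

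The light chains were also set against the heavy chain SLC3A2. Per 100 SLC3A2 counts, SLC7A5 had 229, 254 and 201 counts after DMSO and 98.7, 103 and 101 after THZ1, a log2 difference of −1.17. SLC7A11 had 3.76, 5.20 and 3.05 against 1.26, 1.18 and 1.06, a log2 difference of −1.74. Both light chains were lower relative to the heavy chain in every THZ1 library. SLC3A2 itself rose by 1.48, so any gene that rose less falls relative to it. No share over all genes was taken for these ratios. For each of the 11 ratios the two-sided exact permutation test gave p = 0.1 (adjusted p = 0.1), the smallest that 3 against 3 libraries allow, so none could pass 0.05.

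**Figure D4:**
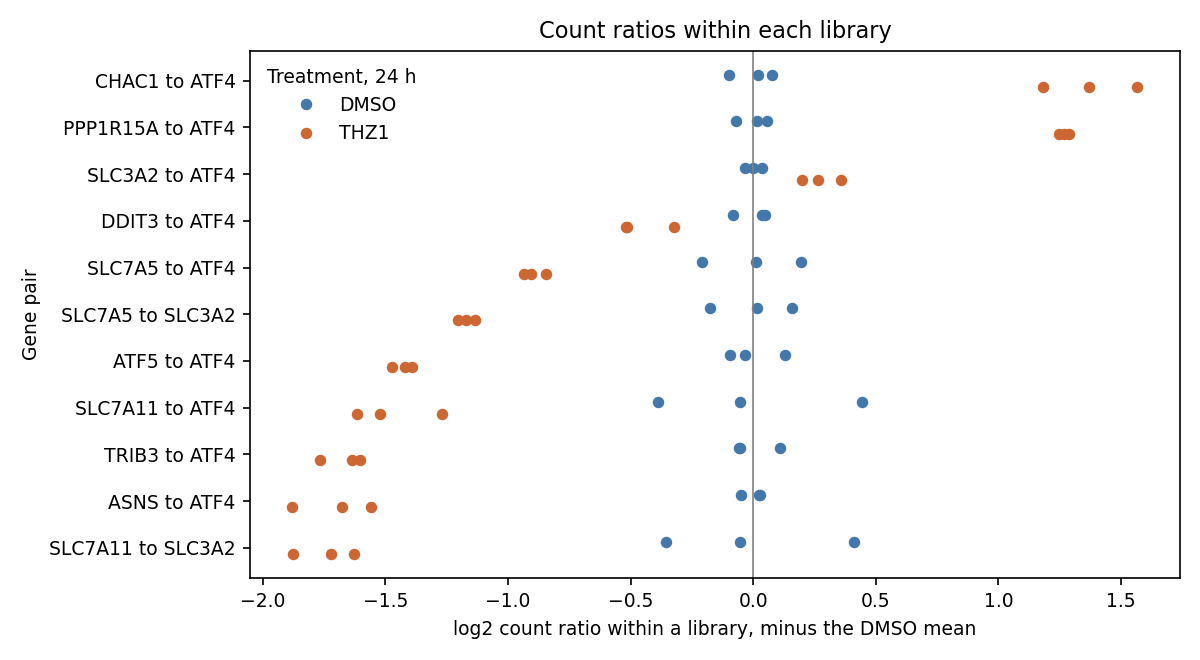
Log2 count ratio of each gene pair within a library, minus the DMSO mean of that pair, for the 3 DMSO and 3 THZ1 libraries. The treatments do not overlap in any of the 11 pairs, with CHAC1, PPP1R15A and SLC3A2 to the right of the DMSO mean and the others to the left. The references ATF4 and SLC3A2 themselves rose by 1.20 and 1.48, and no share over all genes was taken.

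Other genes of the pathway were taken from lists, and each list's counts and median are read beside 43.5% higher, 41.1% lower and a median of 0.03 for all genes tested. Genes named besides the highest and lowest of a list and the eIF2 kinases were chosen after their values were seen. Under the other scalings each of the lists kept the sign of its median.

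The 4 kinases that phosphorylate eIF2 were lower in 3 cases and not called in 1 (median −0.84). EIF2AK1, the heme-regulated kinase HRI, fell from 211 ± 10.1 to 84.2 ± 3.58 CPM (SD, n = 3), a log2 fold change of −1.33 (edgeR adjusted p = 5.09e-17). EIF2AK2, the double-stranded RNA sensor PKR, fell from 80.4 ± 9.14 to 22.1 ± 0.67 CPM (−1.86, edgeR adjusted p = 2.65e-17). EIF2AK3, the endoplasmic reticulum kinase PERK, was lower (−0.35, edgeR adjusted p = 0.00418) with libraries that overlapped, at 35.1 to 42.5 against 27.7 to 36.96 CPM. Its call was lost under upper quartile scaling (−0.16, edgeR adjusted p = 0.181) and with at least 10 counts in every library (−0.22, edgeR adjusted p = 0.0769). EIF2AK4, the amino acid sensor GCN2, had 45.7 ± 4.77 and 42.5 ± 2.84 CPM (−0.10, edgeR adjusted p = 0.315), and it was called lower under library sizes alone (−0.35, edgeR adjusted p = 0.00192) and in the deposited FPKM values (−0.43, limma adjusted p = 0.00715). RNA levels do not give the activity of these kinases.

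Of 13 tested genes for eIF2, its exchange factor eIF2B and the eIF2 phosphatase, 1 was higher, 9 were lower and 3 were not called (median −0.66). The higher gene was PPP1R15B, the constitutive partner of PPP1R15A, at 153 ± 10.8 and 241 ± 11.1 CPM (log2 fold change 0.66, edgeR adjusted p = 5.60e-10). The lowest was EIF2A, an initiation factor distinct from eIF2 itself, at 143 ± 3.47 and 46.9 ± 1.45 CPM (−1.61). The eIF2 subunit gene EIF2S1, whose product is the phosphorylated one, was lower, at −0.67.

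Of 6 tested C/EBP and ATF partners of ATF4, 4 were higher and 2 lower (median 1.51). ATF3, a stress-induced repressor and activator, rose the most, from 5.13, 5.41 and 5.15 CPM after DMSO to 173, 150.3 and 152 CPM after THZ1 (log2 fold change 4.92 ± 0.11, edgeR adjusted p = 1.81e-27). The C/EBP genes CEBPB and CEBPG were higher by 1.74 and 1.71. JDP2, a repressor that pairs with Jun and ATF factors, was the lowest at −0.93.

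Of 17 tested other stress targets linked to ATF4, 10 were higher and 7 lower (median 0.27, and 0.02 to 0.47 under other scalings). ATF3 and CEBPB stand in this list too. GDF15, a secreted stress cytokine, had 0, 0 and 2 counts after DMSO and 53, 39 and 41 after THZ1, a ratio of library-scaled counts of 108 with a 95% counting interval of 29.2 to 897. SESN2, a sensor that restrains mTORC1, rose from 31.8 ± 0.76 to 127 ± 10.4 CPM (log2 fold change 2.001), and DDIT4, another mTORC1 inhibitor, from 116 ± 6.72 to 379 ± 28.1 CPM (1.71). The lowest was EIF4EBP1, which encodes the translation repressor 4E-BP1, from 135 ± 17.8 to 23.2 ± 2.69 CPM (−2.54, edgeR adjusted p = 1.73e-20). GPT2 and ATG5 were the next lowest of the 7, at −1.80 and −1.28.

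The biosynthetic genes linked to ATF4 did not follow the higher members. Of 11 tested genes for serine, one-carbon and proline synthesis, 0 were higher, 9 were lower and 2 were not called by edgeR (median −1.09). The lowest was MTHFD2, a mitochondrial folate enzyme, from 384 ± 11.02 to 98.2 ± 7.96 CPM (log2 fold change −1.97, edgeR adjusted p = 2.09e-21). PSAT1, of serine synthesis, fell from 203 ± 5.11 to 73.5 ± 8.33 CPM (−1.46). PHGDH, the enzyme of the preceding step, had 283 ± 18.8 and 284 ± 25.1 CPM, and GOT1 was the highest at 0.19 without a call.

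Of 20 tested cytoplasmic aminoacyl-tRNA synthetases, which charge tRNAs with amino acids, 2 were higher, 17 lower and 1 not called (median −1.21). QARS1, for glutamine, was the highest at 0.42 (edgeR adjusted p = 1.82e-06), and MARS1, for methionine, was the other higher gene at 0.25. FARSB, a subunit for phenylalanine, was the lowest, from 78.1 ± 1.11 to 11.9 ± 1.26 CPM (log2 fold change −2.72). Without THZ1 replicate 1 the call of MARS1 was lost (0.16, edgeR adjusted p = 0.0574), as it was under library sizes alone (0.01, edgeR adjusted p = 0.933), which left 1 higher synthetase.

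Of 32 other amino acid transporters, 20 were tested, with 3 higher, 12 lower and 5 not called (median −0.61). SLC43A2, a carrier of large neutral amino acids as SLC7A5 is, was the highest, from 13.1 ± 0.47 to 69.8 ± 5.01 CPM (log2 fold change 2.42, edgeR adjusted p = 4.62e-20). SLC7A7, another light chain of SLC3A2, was higher by 2.29, and SLC38A2, a glutamine and alanine carrier, by 0.76. The lowest was SLC1A4, a neutral amino acid exchanger, from 46.0 ± 2.24 to 9.24 ± 0.96 CPM (−2.32, edgeR adjusted p = 1.12e-17). Without DMSO replicate 2 the count of higher transporters was 5.

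**Figure D5:**
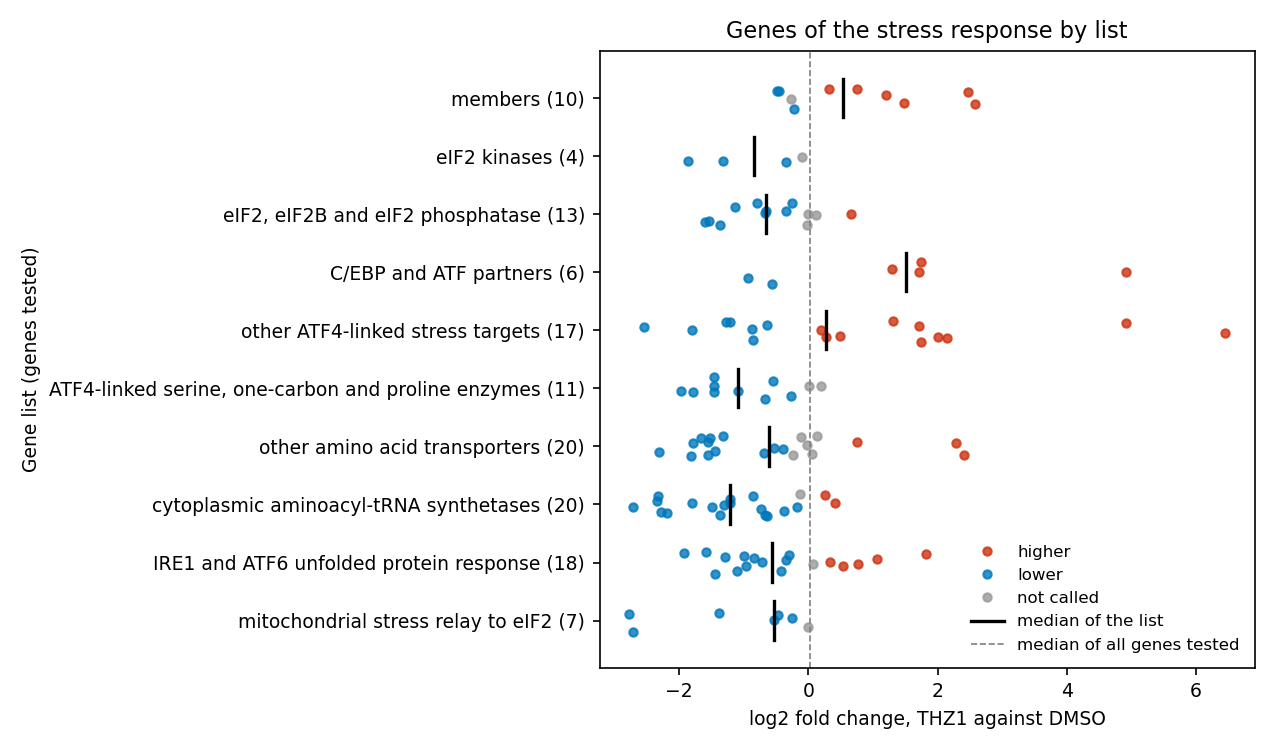
Log2 fold change, THZ1 against DMSO, of each tested gene (points, shifted vertically to be seen) by list, with the list's median (black line) and the median of all genes tested (dashed line, 0.03). The members' and the C/EBP and ATF partners' medians lie at 0.53 and 1.51, those of the synthetases and the serine, one-carbon and proline enzymes at −1.21 and −1.09, and the point at 6.45 is GDF15, a fitted value from 2 counts in the DMSO libraries.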

How the data were processed

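RNA was isolated with TRIzol and sequenced, and the authors mapped filtered reads to GRCh37 with STAR and counted them per gene with htseq-count. The deposited counts are raw. The deposited expression values are on a log2 scale, read as log2(FPKM + 1) from RSEM, and were taken back to FPKM for levels. Their sorted values are nearly alike within a treatment, by a step not given in the sources used here. SDs, overlaps and limma p-values from them may therefore understate the spread between libraries. The authors' fold changes, p-values and FDR in the same table were not used. The annotation, strand setting and treatment of multi-mapped reads are not given in the sources used here.

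Genes were filtered by edgeR's filterByExpr (minimum count 10, total 15), scaled by TMM and tested two-sided by its quasi-likelihood fit, with p-values of all 16622 genes adjusted by the Benjamini-Hochberg method, called at an adjusted p below 0.05. CPM are TMM-scaled. SE derive from the fold change and the F statistic. Ratios used counts + 0.5 and an exact permutation test. The design named FPKM, and the log2 values were handled as stated. Libraries are not labelled as separate cultures, so p-values measure only the spread between libraries, which may be technical. All library pairs differed by more than sampling noise (chi-square per gene 1.81 to 9.35). DMSO libraries were deeper than THZ1 libraries. Intervals cover counting error only.

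The members and lists were chosen with earlier results of these data known. All members, the highest and lowest gene of each list, the eIF2 kinases, and overlapping or pseudogene copies with counts were named. TXNIP and SLC6A14 could not be matched and were left out. Gene coordinates are from GENCODE 44 mapped to GRCh37, and start sites from RefSeq. Alternatives were RLE, upper quartile and no scaling factors, DESeq2, 2 other filters, a replicate block, each library left out, and limma on log2 FPKM. Fits without mitochondrial genes were added after the data had been seen. The scripts were tested on simulated data. R 4.3.3, edgeR 4.0.16, limma 3.58.1, DESeq2 1.42.0 and Python 3.11.15 were used.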

Additional observations from a re-analysis of the deposited data

How the results depend on the processing

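No called member and no ratio changed its sign under any alternative. Of the called pathway list genes 3 did, ERN1 (down to −0.10), ATG12 (down to −0.05) and VARS1 (up to 0.02). The B-cell precursor marker RAG1, called higher at 0.19, did so too (down to −0.06). Of the 10 members, 7 kept their call throughout. ATF5 lost its call with upper quartile factors (−0.027) and with at least 10 counts in every library (−0.087). SLC7A5 lost its call with library sizes alone (0.065) and in every limma fit (0.026, and 0.027 with a pseudocount of 0.1). SLC7A11 gained a call with library sizes alone (−0.52), in the limma fits (−1.11, or −1.63 with that pseudocount) and without DMSO replicate 3, with −0.43 to −0.14 over the libraries left out. Its adjusted p over all alternatives was 0.000592 to 0.704, that of SLC7A5 up to 0.770 and that of ATF5 up to 0.719. The causes were not tested. The median of all genes shifted by −0.25 for library sizes alone and 0.19 for the upper quartile. For limma on log2(FPKM + 1) it shifted by −0.26, and by −0.31 with a pseudocount of 0.1. Leaving out mitochondrial genes changed no member's call under TMM. Under library sizes alone it gave SLC7A5 a call (0.20, edgeR adjusted p = 0.00481) and took that of SLC7A11 (−0.38, edgeR adjusted p = 0.0670), as under TMM.

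Genes past a log2 fold change of 1.5 were 1821 higher and 1178 lower with at least 10 counts in every library, where fewer genes are tested, and 6996 higher with no filter, against 4088 and 2142. Among the lists, the eIF2 kinases had 2 lower with the upper quartile and the stricter filter and 4 with library sizes alone and in the limma fits. The eIF2 and phosphatase genes had 2 higher with RLE, upper quartile, DESeq2 and the stricter filter (1 to 2 over the libraries left out). The serine list had 1 higher with RLE and the stricter filter and 2 with the upper quartile. The transporters had 5 higher with the upper quartile and with the stricter filter or none (3 to 5 over the libraries left out). The synthetases had 1 higher with library sizes alone, with or without mitochondrial genes, and in the limma fits (1 to 2 over the libraries left out). The unfolded protein response list had 3 higher in the limma fits, and the mitochondrial list had 1 with the upper quartile. The cause of these was not tested.

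Deviations of same-numbered libraries correlated at −0.0040, 0.00097 and 0.0206, and those of differently numbered libraries at −0.018 to 0.017. No pairing by replicate number was thus detectable, and the labels do not say whether libraries were set up in pairs. With a replicate block, 7181 genes were higher and 6786 lower, against 7224 and 6826, the members were still 6 higher and 3 lower, and the ratio tests could not go below p = 0.25 by an exact permutation test within pairs.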

Other observations

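The branches of the unfolded protein response outside the eIF2 kinase PERK were measured in 18 genes, of which 5 were higher, 12 lower and 1 not called by edgeR, with a median log2 fold change of −0.57 beside 0.03 for all genes tested. CRELD2, a protein of the endoplasmic reticulum induced by its stress, was the highest, at 59.0, 56.0 and 63.0 CPM after DMSO and 207, 216 and 205 CPM after THZ1 (log2 fold change 1.82 ± 0.07, edgeR adjusted p = 2.29e-20). SEL1L, of the complex that removes misfolded proteins, was the lowest, from 66.9 ± 9.53 to 17.6 ± 0.94 CPM (SD, n = 3, log2 fold change −1.92). The main chaperone gene HSPA5, named after its values were seen, was lower, at −0.34, as was XBP1, the target of IRE1, at −0.96. Besides CRELD2, the higher genes were ERN1, which encodes IRE1, at 1.07, DNAJC3 at 0.77, HYOU1 at 0.54 and EDEM1 at 0.33. ERN1 fell to −0.10 in its lowest alternative. RNA levels do not give the activity of these branches.

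The list for the relay that carries mitochondrial stress to eIF2 also held mitochondrial chaperones and proteases. Of its 7 genes, 0 were higher, 6 lower and 1 not called by edgeR (median −0.53), which is not a measure of the relay alone. HSPD1, the mitochondrial chaperone, was the lowest, from 1154 ± 23.7 to 169 ± 8.76 CPM (log2 fold change −2.77, edgeR adjusted p = 1.94e-25), and LONP1, a protease, had 228 ± 23.0 and 227 ± 4.53 CPM. The protease OMA1 and its substrate DELE1, chosen after their values were seen, were lower, at −2.71 and −1.39. Mitochondrially encoded genes took a larger share of the counts after THZ1, and the part of that in these values was not tested.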
